A study of Mus musculus with 2 samples.

Results

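The cells described here are lymphocytes of the mouse small intestine that carried RNA for Ifng or Gzma and no RNA for the CD3 chains. Ifng encodes interferon-γ, the signature cytokine of type 1 immunity. Gzma encodes granzyme A, a serine protease stored in cytotoxic granules. A cell was a member when it had at least 1 unique molecular identifier (UMI, 1 counted RNA molecule) of Ifng plus Gzma and none of Cd3e, Cd3d, Cd3g and Trac. Of 20041 kept cells, 542 were members, 98 of 10790 in the unstimulated library and 444 of 9251 in the stimulated library. Because Ifng and Gzma chose the members, their own levels are given as a description. In the GRCm38 build, by the GENCODE annotation, Ifng lies on the plus strand of chromosome 10 from 118441046 to 118445892, and Gzma on the minus strand of chromosome 13 from 113093825 to 113100981.

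Innate lymphoid cells (ILCs) are lymphocytes without rearranged antigen receptors. ILC1s and natural killer cells depend on the transcription factor T-bet (gene Tbx21) and make interferon-γ, and natural killer cells also use Eomes. ILC3s respond to IL-23 and IL-1 and make IL-22 and IL-17. Some intestinal ILC3s carry the receptor NKp46 (gene Ncr1) and T-bet and can make interferon-γ, while another ILC3 branch carries CCR6.

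All cells came from the small intestine of Il23r-eGFP mice, a reporter strain in which eGFP marks cells with an active Il23r gene, and live eGFP-positive cells were sorted after enrichment of leukocytes. The unstimulated library is labelled as untreated, and the stimulated library as given recombinant mouse IL-23 for 2 h. The sources used here do not give the number or age of the animals, or say how the unstimulated cells were held, and the protocol text of both libraries mentions IL-23. The sort keeps only cells that express the reporter, so ILC1s and natural killer cells without it were not collected. With 1 library per condition there are no replicates and no test was possible: intervals in brackets are exact 95% intervals that cover counting error only, and differences between the libraries cannot be told apart from differences between 2 preparations.

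Kept cells had a median of 4928 UMIs (unstimulated) and 6087 UMIs (stimulated), with 58148889 and 61359895 UMIs in all. The 2 libraries shared 25 cell barcodes, of which 1 was a member, in the stimulated library. No doublet caller was run. Of the members, 3 unstimulated and 2 stimulated cells carried B cell or plasma cell markers (at least 3 UMIs of Cd79a, Cd79b and Ebf1 in sum), and each had 1 Gzma UMI and no Ifng UMI. Levels are given as CPM, the UMIs of a gene summed over a group and scaled to the group's total. UMIs of 12 B and plasma cell genes stood at 76709 CPM in unstimulated and 7305 CPM in stimulated members, and at 20.02 CPM [10.7 to 34.2] and 11.3 CPM [8.09 to 15.4] without these 5 cells. They meet the rule and were kept, and the counts of genes below are also given without B-marked cells.

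Members were more frequent in the stimulated library. They made 0.982% [0.798 to 1.20] of the 9980 cells without CD3 chain and Trac UMIs in the unstimulated library and 5.22% [4.76 to 5.72] of 8501 in the stimulated library. Median depth was also higher in the stimulated library, so each cell was also thinned to 2000 UMIs: the shares were then 0.428% and 2.64%. Ifng was found in 0.741% [0.583 to 0.930] and 2.31% [2.00 to 2.65] of these cells, and Gzma in 0.261% [0.170 to 0.381] and 3.11% [2.75 to 3.50]. Ifng-positive cells outnumbered Gzma-positive cells without stimulation (74 against 26), and the order was reversed with it (196 against 264).

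The threshold lies between 0 and 1 UMI, and just inside it, with exactly 1 UMI of Ifng plus Gzma, were 63 of 98 unstimulated and 189 of 444 stimulated members. Levels per cell were higher in the stimulated library. The median Ifng-positive cell had 1 UMI and the highest had 10 in the unstimulated library, against a median of 2 and a highest of 71 in the stimulated library. For Gzma the median and highest were 1 and 5 without stimulation and 2 and 80 with it. In the stimulated library 22 cells with 10 or more Ifng UMIs held 55.2% of the Ifng UMIs, and 29 cells with 10 or more Gzma UMIs held 52.5% of the Gzma UMIs.

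Ifng and Gzma were mostly found in different cells. In all, 2 unstimulated cells and 16 stimulated cells had both. In the stimulated library these 16 were 8.16% [4.74 to 12.9] of the Ifng-positive and 6.06% [3.50 to 9.66] of the Gzma-positive cells. Gzma was found in 2.99% of the cells without Ifng, and Ifng in 2.19% of the cells without Gzma, so each transcript was more frequent among cells with the other than among cells without it. Within Ncr1-positive cells of the stimulated library the shares lay closer together: 7 of 91 Ifng-positive cells (7.69% [3.15 to 15.2]) had Gzma, against 5.97% of the Ifng-negative ones. At least 2 UMIs of each gene were then required in the stimulated library. Over all its cells without CD3 chain and Trac UMIs, the order held. There, 7 of 102 Ifng-positive cells (6.86% [2.80 to 13.6]) had Gzma, against 1.80% of the other cells. Among Ncr1-positive cells the order turned, with 1 of 47 Ifng-positive cells (2.13% [0.0539 to 11.3]) against 4.40%. That reversal rests on 1 cell, and its interval holds the other share. In the unstimulated library 2.70% [0.329 to 9.42] of the Ifng-positive cells had Gzma, and 0.242% of the Ifng-negative ones. The highest cell of either gene had none of the other.

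**Figure D1:**
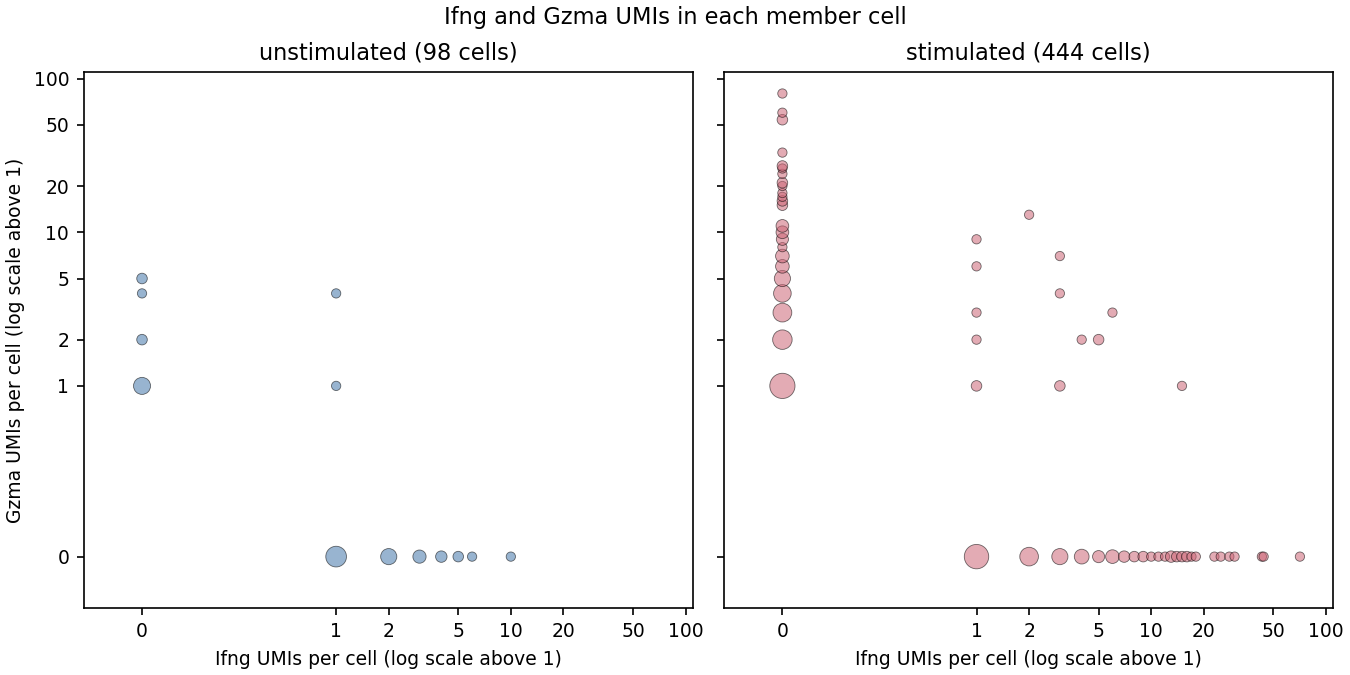
Ifng UMIs (horizontal) and Gzma UMIs (vertical) of each member cell, on axes that are linear from 0 to 1 and logarithmic above, for 98 unstimulated and 444 stimulated members. Point area grows with the number of cells at that position. Most points lie on one of the 2 axes, and 16 stimulated cells lie between them.

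Both genes were unevenly spread over the sorted cells, and Ncr1-positive cells stood above Ccr6-positive ones. Among Ncr1-positive cells without CD3 chain and Trac UMIs, 2.49% [1.65 to 3.60] of 1084 had Ifng in the unstimulated library and 7.01% [5.68 to 8.54] of 1298 in the stimulated library. In Ccr6-positive Ncr1-negative cells the shares were 0.0657% of 1522 and 0.413% [0.152 to 0.896] of 1454. Gzma followed the same order in the stimulated library, with 6.09% [4.85 to 7.53] against 0.619% [0.283 to 1.17]. Median depths were 7350.5 UMIs in the Ncr1-positive and 6216 UMIs in the Ccr6-positive stimulated cells, and the thinned Gzma shares were 2.80% and 0.140%. Among CD3-positive cells of the stimulated library, which the rule leaves out, 2.69% had Ifng and 7.19% [5.35 to 9.41] had Gzma.

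Cells with B cell markers were taken as a rough gauge of free RNA, on the premise that B cells lack both transcripts. No doublet caller was run, so doublets of a B cell and an ILC among them cannot be told apart from free RNA. Of 33 such unstimulated cells (median 7588 UMIs) 1 had Ifng and 3 had Gzma, which is 9.09% [1.92 to 24.3] for Gzma. Of 17 stimulated ones (median 10590 UMIs) none had Ifng, which, taking 3 cells as the limit of a count of 0, allows a share of cells with a UMI of up to 17.6%, and 2 had Gzma, or 11.8% [1.46 to 36.4]. After thinning, none of the 31 and 16 cells left had Gzma. No B-marked cell had more than 1 UMI of either gene. Ifng was in 3.03% [0.0767 to 15.8] of the unstimulated ones. As counted, the shares of either gene among the ILCs did not exceed the upper limits of this gauge, which so few cells leave wide. For Ifng in the stimulated library they were above the counted share of 0. A single UMI of Ifng or Gzma is therefore not read as expression. The stimulated shares of Ncr1-positive and Ccr6-positive cells differed beyond their counting intervals, as counted and after thinning.

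**Figure D2:**
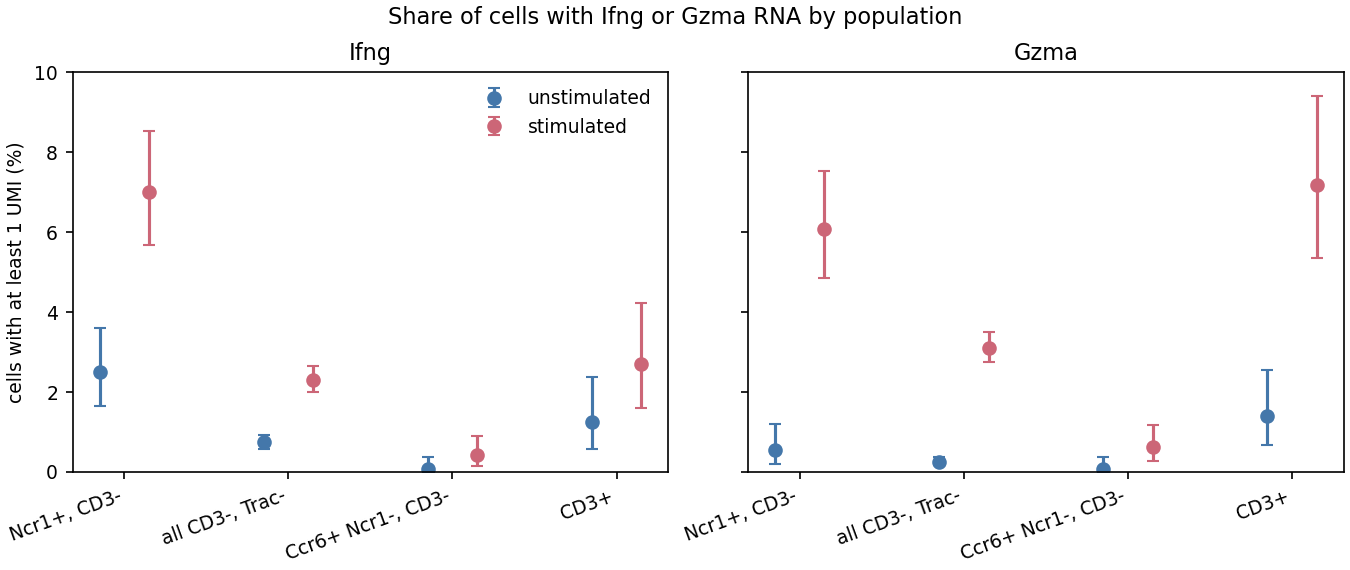
Share of cells with at least 1 UMI of Ifng (left) or Gzma (right), in percent, in 4 populations of the unstimulated and stimulated libraries; bars are exact 95% binomial intervals for counting error. Ncr1-positive cells reach 7.01% for Ifng and 6.09% for Gzma in the stimulated library, against 0.413% and 0.619% of Ccr6-positive Ncr1-negative cells.

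The label type 1-like was checked against the markers. Of 98 unstimulated members 32 had Ncr1 (32.7%), as did 163 of 444 stimulated ones (36.7%). Tbx21 was found in 20 (20.4%) and 74 (16.7%), and Gzmb, the gene of granzyme B, in 23 (23.5%) and 86 (19.4%). Most members therefore had no UMI of any given marker, at median depths of 6203 and 7233 UMIs. Il22, a cytokine gene of ILC3s, stood at 28435 CPM in stimulated members. The data thus go partly against the label, and the cells are called Ifng- or Gzma-positive ILCs here.

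Most markers of mature natural killer cells had few or no UMIs. Of 11 listed genes, Eomes, Itga2, S1pr5, Klra8, Klra4, Klra9 and Cma1 were at 0 in the unstimulated members, where a count of 0 allows up to 4.02 CPM. In the stimulated members S1pr5, Klra8, Klra4, Klra9 and Cma1 were at 0, and Eomes was found in 1 of 444 cells. Irf8, a transcription factor gene, made most of the list's UMIs, with 151 CPM in unstimulated and 259 CPM in stimulated members, against 128 and 213 CPM in the Ncr1-positive cells without Ifng and Gzma. The whole list stood at 202 and 307 CPM in members and 159 and 251 CPM in those cells.

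T cell genes outside the rule were also checked, since a shallowly sequenced T cell can lack CD3 UMIs. Cd5, Cd6, Themis, Cd8a and Cd8b1 were at 0 in both libraries' members, while CD3-positive cells had 39.2 and 27.6 CPM of Cd5 and 52.8 and 26.5 CPM of Cd6. Trdc, the constant segment of the T cell receptor δ chain, was at 2.68 and 2.51 CPM in members against 651 and 534 CPM in CD3-positive cells. The β chain constant segments Trbc1 and Trbc2 were present, at 329 and 233 CPM in stimulated members and 281 and 205 CPM in the comparison cells. Cells with a UMI of Trbc1, Trbc2 or Trdc were 91 of 98 and 378 of 444 members, and 933 of 1067 and 955 of 1149 comparison cells. The 20 listed T cell genes together stood at 906 and 729 CPM in members, 845 and 655 CPM in comparison cells and 3165 and 2435 CPM in CD3-positive cells.

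Members were then set against comparison cells of the same library, which were CD3-chain-negative, Ncr1-positive and free of Ifng and Gzma (1067 unstimulated and 1149 stimulated cells). A gene was measured when it had at least 20 CPM in either group and 20 UMIs over both, and called when the sums differed at least 2-fold, the genes of the rule left out. Every comparison cell was chosen for an Ncr1 UMI, which 66 of 98 and 281 of 444 members lack, so the contrast also holds a difference in Ncr1. Keeping Ncr1-positive members only left 32 unstimulated and 163 stimulated member cells. Of 5513 genes measured with these 32 cells, 318 were higher and 275 lower. Of 5159 measured with the 163 stimulated cells, 27 were higher and 16 lower. How far these counts reflect the smaller number of member cells, and not Ncr1, was not tested. With all members, 19 of 5122 measured genes (0.371%) differed at least 2-fold in the stimulated library. Of these, 16 were higher in members (0.312%) and 3 lower (0.0586%). Without cells carrying B cell markers 14 of 5125 differed (0.273%), 11 higher (0.215%), of which 10 were among the 16, and 3 lower (0.0585%). In the unstimulated library, with fewer member cells, 184 of 5439 differed (3.38%), 99 higher (1.82%) and 85 lower (1.56%). Without the B-marked cells 147 of 5483 differed (2.68%), 92 higher (1.68%) and 55 lower (1%), but these held only 44 of the 99 higher and 46 of the 85 lower genes. The unstimulated split was 117 higher and 60 lower with TMM scaling and 131 and 47 with median-of-ratios scaling. Of 4946 genes measured in both libraries, 9 were higher in both, none was lower in both and none was called in opposite directions. Of the 9, Igha, Igkc, Jchain and Mzb1 are on the B and plasma cell list and Iglc1 is another immunoglobulin gene. Without B-marked cells 5 genes were higher in both, Ccl3, Ccl4, Xcl1, Slamf7 and Iigp1, and 4 of these were among the 9.

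B and plasma cell genes had the highest ratios, with 7 of 7 measured higher in the unstimulated library (median log2 ratio 4.84) and 4 of 4 in the stimulated library (9.59), and none was measured in the unstimulated library without the B-marked cells. Chemokine genes were also higher in members. Xcl1, the gene of lymphotactin, which attracts cross-presenting dendritic cells, was at 217 CPM [185 to 253] in unstimulated members and 57.8 CPM [52.3 to 63.6] in comparison cells, and at 107 CPM [96.3 to 118] against 49.7 CPM [45.2 to 54.5] in the stimulated library. It was 3.77-fold and 2.15-fold higher in members. Ccl3, an inflammatory chemokine gene, was at 61.7 CPM against 7.33 CPM and at 58.8 CPM against 5.26 CPM, 8.43-fold and 11.1-fold higher. Only 10 and 34 members had a Ccl3 UMI, and in the unstimulated library 1 cell held 52% of them. Ccl4 was 8.02-fold and 5.53-fold higher, found in 7 and 26 members, with 62% and 29% of its UMIs in 1 cell. Ccl5 was 9.17-fold higher in stimulated members, but 1 of the 8 positive cells held 56% of its UMIs.

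Fasl, the gene of the death ligand FasL, showed its difference in the stimulated library. It stood at 52.4 CPM [45.2 to 60.5] in members, found in 96 of 444 cells, against 18.7 CPM [16.0 to 21.8] in comparison cells, 2.80-fold higher. In the unstimulated library it was at 44.2 CPM against 29.7 CPM, a 1.51-fold difference that was not called. Nkg7, a gene of cytotoxic granules, was at 105 and 122 CPM in members and 64.2 and 63.2 CPM in comparison cells, 1.64-fold and 1.93-fold higher. Its intervals did not overlap between the groups in either library, yet neither difference reached 2-fold. Tyrobp, which encodes the signalling adaptor DAP12 of natural killer receptors, was 1.64-fold and 2.14-fold higher, and Klrc1, the gene of the receptor NKG2A, 1.72-fold and 1.47-fold.

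The markers Tbx21 and Gzmb were higher in members without reaching 2-fold. Tbx21 was at 41.6 CPM [28.2 to 59.0] against 24.0 CPM [20.5 to 27.8] in the unstimulated library and 29.5 CPM [24.2 to 35.7] against 18.7 CPM [16.0 to 21.8] in the stimulated one, 1.76-fold and 1.58-fold higher. When members were restricted to those with an Ncr1 UMI, as all comparison cells are, the log2 ratios of Tbx21 were 1.70 and 1.10, both past 2-fold, and without B-marked cells the unstimulated log2 ratio was 1.00. Leaving out cells above the 95th percentile of UMIs put Tbx21, Gzmb, Fasl and Nkg7 past 2-fold in the unstimulated library (log2 ratios of 1.25, 1.14, 1.21 and 1.16), and Nkg7 in the stimulated one (1.05). Gzmb was at 83.1 CPM against 48.0 CPM, and at 101 CPM against 84.4 CPM. The listed cytotoxic granule genes held no call, with 0 of 9 measured genes past 2-fold in the unstimulated and 0 of 10 in the stimulated library. The list of the type 1 programme had 4 of 16 higher without stimulation (Cxcr3, Ccl3, Ccl4 and Xcl1) and 5 of 17 with it (Ccl3, Ccl4, Ccl5, Xcl1 and Fasl), and none lower. Its median log2 ratios were 0.10 and 0.20, against −0.12 and −0.01 over all measured genes.

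Il17a was at 50.2 CPM [43.1 to 58.1] in stimulated members and 151 CPM [143 to 159.5] in comparison cells, 3.01-fold lower, and Areg, the gene of the repair factor amphiregulin, was at 39.6 CPM against 90.8 CPM, 2.29-fold lower. In both cases a single cell held a large share, 24% and 20% of the members' UMIs and 23% and 32% of those of the comparison cells. With Ncr1-positive members only, the log2 ratios were −0.86 for Il17a and −0.77 for Areg, within 2-fold. Il22, Il17f and Il23r were within 2-fold in the stimulated library. Il23r, the gene of the IL-23 receptor, was at 194 CPM against 199 CPM. Calca, which encodes the neuropeptide CGRP, was 3.24-fold higher in stimulated members (53.0 CPM against 16.3 CPM) and was found in 32 of them, but its log2 ratio was 0.99 among members with at least 2 UMIs of Ifng plus Gzma and 0.73 among those with Ncr1.

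Ctla4, the gene of a checkpoint receptor, stood at 75.1 CPM [56.7 to 97.5] against 31.1 CPM [27.2 to 35.5] without stimulation and at 511 CPM [488 to 535] against 332 CPM [320 to 344] with it, 2.43-fold and 1.54-fold higher, and only the former was called. Cxcl10, an interferon-induced chemokine gene, was at 190.4 CPM against 83.1 CPM and 82.2 CPM against 43.1 CPM, and the interferon response list had 2 of 16 genes higher without stimulation (Cxcl9 and Cxcl10) and 1 of 16 with it (Ifit1, with 44% of its UMIs in 1 cell). The naming rule also picked Hspa1a, Lgals1 and Cd74, called in the unstimulated library, and Dusp4, Nfkbid, H2-Aa, Txnip and Lmnb1, which were within 2-fold in both. Cd74 was at 650.2 CPM in unstimulated members and 148 CPM without the B-marked cells. Of the 10 genes picked as lower, Pcp4, which encodes a calmodulin regulator, was at 457 CPM against 868 CPM and 377 CPM against 684 CPM. Chad, the gene of the matrix protein chondroadherin, was at 96.5 CPM against 224 CPM and 123 CPM against 205 CPM, called in the unstimulated library, where its log2 ratio was −0.67 without the deepest cells. Dppa2, Ctsh, Gjb2, Dnajc21, Pfkfb3, Arhgef28 and Slc15a3 were also picked, of which Dppa2 was also called in the unstimulated library.

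The members were not uniform. In the stimulated library, 180 cells with Ifng alone were set against 248 cells with Gzma alone, at median depths of 7332.5 and 7153.5 UMIs. Of 5297 measured genes, 260 differed at least 2-fold (4.91%), 172 higher in Ifng-only cells (3.25%) and 88 lower (1.66%). Without B-marked cells 244 of 5302 differed (4.6%), 161 higher (3.04%), 158 of them among the 172, and 83 lower (1.57%), 69 of them among the 88. For 165 of the 172 and 78 of the 88 genes the comparison cells lay between the 2 sets. These genes were picked for a gap of at least 2-fold between the same sets, which by itself favours a place between them. No conclusion is drawn from these counts. The sets are defined by UMIs and not by expression of the gene, since 88 of the Ifng-only and 101 of the Gzma-only cells had a single UMI of it. With at least 2 UMIs, 92 cells against 147, 217 genes were higher and 164 lower, holding 129 of the 172 and 53 of the 88. The log2 ratios were then 2.31 for Tbx21, 3.22 for Nfkbid and 1.89 for Fos, while Il17f, Dppa2, Cd74 and Nrp1 were within 2-fold at −0.91, −0.88, −0.95 and −0.87.

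The 2 sets differed in Tbx21. It stood at 50.6 CPM [39.9 to 63.2] in Ifng-only and 9.77 CPM [5.88 to 15.2] in Gzma-only cells, 5.08-fold apart, with 18.7 CPM in comparison cells. In cell counts, 51 of 180 Ifng-only cells (28.3%) and 17 of 248 Gzma-only cells (6.85%) had Tbx21. The 16 cells with both transcripts stood at 83.1 CPM, and 6 of them had it. By the number of Ifng UMIs, Tbx21 was found in 25% of the 88 cells with 1 Ifng UMI, 32.1% of the 53 with 2 to 4 and 30.8% of the 39 with 5 or more. Along Gzma the shares were 6.93% of 101, 9.41% of 85 and 3.23% of 62 cells. The counting intervals of the classes of each gene overlapped. Ctla4 rose along the Gzma classes: it was found in 50.5% [40.4 to 60.6], 58.8% [47.6 to 69.4] and 79.03% [66.8 to 88.3] of these cells, whose median depths were 6683, 7269 and 7712 UMIs. The intervals of neighbouring classes overlapped. The rise was not particular to Ctla4, since Ncr1 (18.8%, 34.1% and 38.7%) and Trbc2 (47.5%, 57.6% and 71.0%) rose along the same classes.

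Gzmb was within 2-fold in the stimulated library, with 96.6 CPM [81.6 to 114] in Ifng-only and 108 CPM [93.8 to 124] in Gzma-only cells. Prf1, the gene of the pore protein perforin, stood low in both at 11.2 and 8.22 CPM. Nkg7 was at 129 and 107 CPM. In the unstimulated library, in Ifng-only cells against Gzma-only cells without B cell markers, Gzmb was at 108 CPM [80.7 to 141] against 61.4 CPM [28.1 to 116] and Nkg7 at 136 CPM [106 to 173] against 61.4 CPM, the latter called. In the stimulated library Ncr1, a gene of the comparison's rule, was found in 84 (46.7%) of the Ifng-only and 72 (29.0%) of the Gzma-only cells.

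Marker lists of other cells moved with this division. The summed mature natural killer cell list stood at 390 CPM [359 to 422] in stimulated Ifng-only, 239.5 CPM [218 to 262] in Gzma-only and 251 CPM in comparison cells. Of the list's 11 genes, S1pr5, Klra8, Klra4, Klra9 and Cma1 were at 0 in both sets. Eomes was found in 1 of 180 Ifng-only and 0 of 248 Gzma-only cells. Only 2 genes of the list were measured, so its sum rests on few genes. Of these 2, Klf2, a transcription factor gene of resting lymphocytes, was called, at 54.5 CPM [43.4 to 67.6] against 17.5 CPM [12.1 to 24.4]. In the unstimulated library Klf2 was at 54.9 CPM in Ifng-only cells and at 0 in the Gzma-only cells without B cell markers. In these few Gzma-only cells the exact interval of a count of 0 reaches 25.2 CPM. The mature natural killer cell list was at 238 CPM against 164 CPM, with overlapping intervals. The 20 T cell genes stood at 858 CPM [812 to 906] against 609 CPM [575 to 645] with stimulation and 1051 CPM [962 to 1145] against 832 CPM [691 to 993] without it. Cd5, Cd6, Themis, Cd8a and Cd8b1 of this list were at 0 in both sets of each library. Of 6 measured in each library, Lck, a kinase gene of T cell receptor signalling, was called in both. The part of such cells in the division was not tested.

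**Figure D3:**
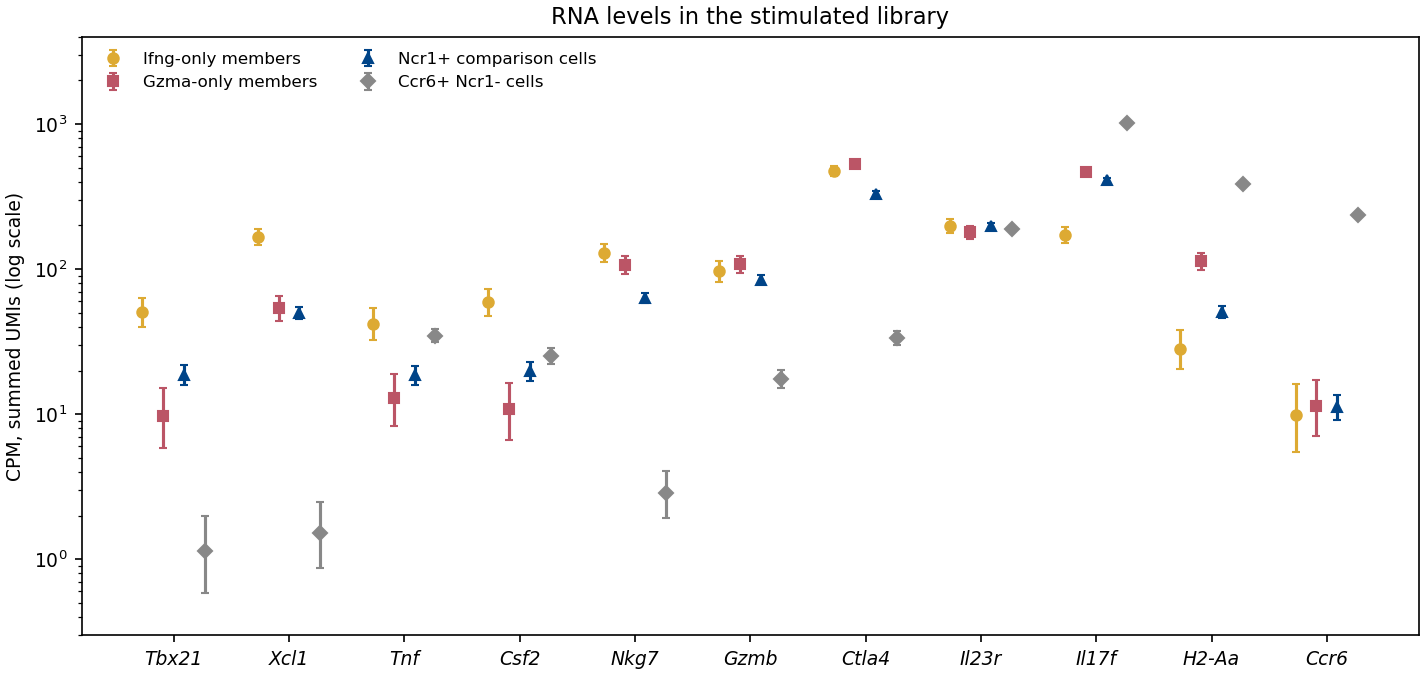
Levels of 11 genes in the stimulated library as CPM of summed UMIs, on a logarithmic axis, in Ifng-only members, Gzma-only members, Ncr1-positive comparison cells and Ccr6-positive Ncr1-negative cells; bars are exact 95% Poisson intervals for counting error. Tbx21 is at 50.6 CPM in Ifng-only and 9.77 CPM in Gzma-only cells, while Gzmb is at 96.6 and 108 CPM.

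Of 10 measured effector cytokine genes, 4 were higher in Ifng-only cells and 1 in Gzma-only cells. Csf2, the gene of the myeloid growth factor GM-CSF, was at 59.1 CPM [47.6 to 72.7] against 10.8 CPM [6.68 to 16.5], 5.38-fold, although its log2 ratio was 0.80 among Ncr1-positive members. Tnf was at 42.1 CPM against 12.8 CPM, found in 36 and 8 cells, and 64% of the Gzma-only UMIs came from 1 cell. The tumour necrosis factor family ligands Tnfsf11 (RANKL) and Ltb (lymphotoxin β) were 2.13-fold and 2.52-fold higher. Xcl1, from the type 1 list, was 3.07-fold higher at 166 CPM against 54.0 CPM, with a log2 ratio of 0.59 among Ncr1-positive members. In that list Ccl5 was higher in Gzma-only cells, from 3 cells in each set. Il17f ran the other way, at 172 CPM [152 to 194] in Ifng-only and 467 CPM [437 to 499] in Gzma-only cells, where 98 of 248 cells had it. Il22 was within 2-fold, at 32987 against 24426 CPM.

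Genes of acute activation were higher in the Ifng-only cells. Of 16 measured immediate early genes, 7 were higher and none lower (Fos, Fosb, Nr4a1, Nr4a2, Nr4a3, Zfp36 and Myc), with a median log2 ratio of 0.91 against −0.02 over all measured genes. Fos, a subunit of the transcription factor AP-1, was at 691 CPM [650 to 734] against 187 CPM [168 to 207]. Nr4a1, an orphan nuclear receptor induced by receptor signalling, was at 393 CPM against 101 CPM. Of 16 NF-κB targets, 7 were higher and none lower (Nfkbia, Nfkbid, Rel, Tnfaip3, Icam1, Bcl2a1b and Cxcl2), with a median of 0.90. Nfkbid, which encodes the nuclear NF-κB regulator IκBNS, was at 124 CPM [107 to 143] against 20.05 CPM [14.3 to 27.4], 6.13-fold. Heat shock genes had 3 of 11 higher: Hspa1a was at 208 CPM against 13.9 CPM, but in 20 and 4 cells with 47% and 89% of the UMIs in 1 cell. Immediate early and heat shock genes are also known to respond to tissue dissociation.

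Irf1, Isg15, Ifit1 and Cxcl10 were higher in Ifng-only cells, 4 of 17 measured, while Gbp2, a guanylate-binding protein gene, was higher in Gzma-only cells at 166 CPM against 76.9 CPM. Isg15 was at 233 CPM against 62.2 CPM and Cxcl10 at 149.9 CPM against 28.8 CPM. The remaining named genes that were higher with Ifng were Sphk2, Hes1, Tyrobp, Ptgs2 and Rilpl2, at 1.83 to 2.19 on the log2 scale. Hes1, a target of Notch signalling, was at 67.0 CPM against 15.4 CPM.

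Genes higher in the Gzma-only cells included the lipid mediator receptor gene Cysltr1, at 289.9 CPM [266 to 315] against 97.9 CPM [82.8 to 115], 2.95-fold. It was found in 105 of 248 and 46 of 180 cells. Ndrg1, Plac8, Tcf4, Trib3 and Dppa2 were 2.39-fold to 2.82-fold higher. Of 7 measured CCR6 ILC3 markers, 5 were higher in the Gzma-only cells, namely the antigen presentation genes H2-Aa, H2-Ab1, H2-Eb1 and Cd74, and Nrp1. This count rests on few cells: H2-Aa was found in 25 Gzma-only cells, 1 of which held 44% of its UMIs, and without B-marked cells the log2 ratio of Cd74 was −0.78, within 2-fold. Among Ncr1-positive members it was 0.47, and that of Nrp1 was −0.85. Ccr6 itself was alike at 9.86 and 11.3 CPM, against 238 CPM in Ccr6-positive cells.

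The unstimulated library gave a second, smaller set of cells on which to read the same division. Here 72 Ifng-only cells were set against 21 Gzma-only cells without B cell markers, and with these few cells 592 of 4072 measured genes differed at least 2-fold (14.5%), 316 higher (7.76%) and 276 lower (6.78%). Genes passed the minimum of 20 UMIs mainly through the Ifng-only cells, so that 121 of the 172 higher but 15 of the 88 lower genes were measured, and no count of shared directions is drawn from them. The log2 ratio of Csf2 was 0.22. Tbx21 was at 58.9 CPM against 6.82 CPM and was found in 18 and 1 cells. Fos was at 909 CPM against 143 CPM, and Nr4a1 at 972 CPM against 198 CPM. Cysltr1 was at 22.4 CPM against 150.01 CPM. The CCR6 ILC3 markers were mostly higher in Ifng-only cells here. Of 5 measured, H2-Aa, Cd74 and Cd83 were higher in Ifng-only cells and Nrp1 lower, with a median log2 ratio of 1.04. The median of −1.04 in the stimulated library is over 7 measured genes and with B-marked cells kept. The 2 medians are therefore not on like sets. H2-Aa was at 77.2 CPM in Ifng-only and 6.82 CPM in Gzma-only cells, and Cd74 at 183 and 40.9 CPM.

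**Figure D4:**
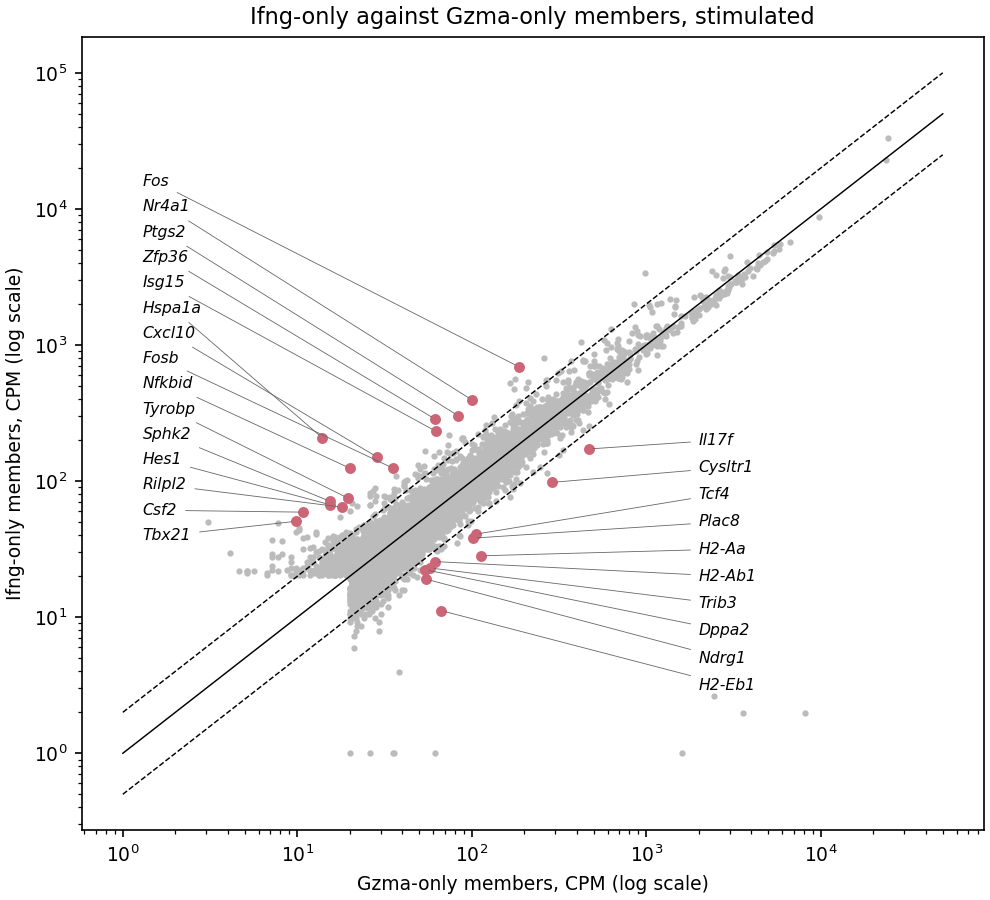
CPM of summed UMIs in Gzma-only (horizontal) and Ifng-only (vertical) members of the stimulated library, on logarithmic axes, for the measured genes; values under 1 CPM are drawn at 1, the solid line marks equality and dashed lines a 2-fold difference. The 25 named genes are coloured, with Tbx21, Nfkbid and Csf2 above the upper line and H2-Eb1, Cysltr1 and Il17f under the lower one.

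Stimulated members were compared with unstimulated members, a contrast that cannot tell IL-23 apart from a difference between 2 preparations. The sets were chosen by genes that themselves differed between the libraries, so they need not hold the same kinds of cell. Ifng-only cells were 72 of 98 unstimulated and 180 of 444 stimulated members. Csf2, Tnf, Tnfsf11, Xcl1, Nr4a1 and Hspa1a, lower in stimulated members, were higher in Ifng-only than in Gzma-only stimulated cells. Il17f, higher in stimulated members, was higher in Gzma-only cells. Myc and Ifit1, higher in both contrasts, ran against this shift in the mix. Its part in the ratios was not tested. Ratios in the comparison cells are given beside those of members. Of 5431 measured genes, 418 differed at least 2-fold (7.7%), 224 higher in stimulated members (4.12%) and 194 lower (3.57%). In the comparison cells 196 of 5310 measured genes differed (3.69%), 135 higher (2.54%) and 61 lower (1.15%). Without the B-marked cells 412 of 5488 differed between the members (7.51%), 182 higher (3.32%) and 230 lower (4.19%), which turns the balance. The median log2 ratio over all measured genes moved as well, from 0.011 to −0.099, so the balance moved along with the scale.

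Targets of STAT3, the transcription factor downstream of the IL-23 receptor, were higher in stimulated cells. Of 18 measured genes 11 were at least 2-fold higher and none lower, in members and in comparison cells alike, with median log2 ratios of 1.94 and 1.87. Like the other lists, this one was chosen with earlier results of these data known, so the count is a description and not a test. The 11 were Socs3, Batf, Bcl3, Pim2, Myc, Ahr, Prdm1, Cebpd, Sbno2, Il1r1 and Gadd45g. Batf, an AP-1 family factor, stood at 30.8 CPM [19.5 to 46.3] in unstimulated and 608 CPM [583 to 634] in stimulated members, and at 24.1 and 578 CPM in comparison cells. Socs3, the feedback inhibitor of the pathway, was at 131 and 782 CPM in members, a log2 ratio of 2.57 against 2.49 in comparison cells. Il1r1, the IL-1 receptor gene, was at 29.5 and 303 CPM, 3.33 against 3.07. Without B-marked cells Pim2 was within 2-fold, which left 10 of 18.

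Il17f had the highest ratio among named genes, from 16.1 CPM [8.31 to 28.1] in 5 cells to 328 CPM [310 to 348] in 155 cells, a log2 ratio of 4.29 against 3.69 in comparison cells. Il22 was 6.04-fold higher, at 4711 and 28435 CPM, against 6.21-fold in comparison cells. Il17a was 5.77-fold higher, at 8.04 and 50.2 CPM, against 22.6-fold. Ctla4 was at 75.1 and 511 CPM, 6.75-fold against 10.6-fold. Icos and Tnfrsf18, 2 costimulatory receptor genes, were 2.57-fold and 3.06-fold higher, against 2.06-fold and 1.92-fold. Pqlc1, Ggta1, Stom, Elovl6, Gcc1, Rap1gds1 and Spred2 were also among the named genes, with log2 ratios of 2.80 to 3.66 in members and 2.17 to 3.39 in comparison cells. Calca stood out, with a log2 ratio of 2.61 in members and 0.24 in comparison cells, but only 1 unstimulated member had it, and among members with at least 2 UMIs of Ifng plus Gzma the ratio was 0.34.

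Tbx21 was at 41.6 and 29.5 CPM, with overlapping intervals, and Gzmb at 83.1 and 101 CPM, log2 ratios of −0.51 and 0.27 against −0.36 and 0.81 in comparison cells. Of 18 measured genes of the type 1 programme, Zeb2 and Cd226 were higher in stimulated members and Cxcr3 and Xcl1 lower, the log2 ratio of Xcl1 being −1.03, and −0.98 with TMM scaling. In comparison cells Zeb2 was at 0.92 and Xcl1 at −0.22, both within 2-fold. Cxcr3, a homing receptor of type 1 lymphocytes, was at 28.2 CPM [17.4 to 43.0] and 6.69 CPM [4.29 to 9.95], 4.22-fold lower, against 1.59-fold in comparison cells, where it was under the minimum level. Cd226, an activating receptor gene, was at 22.8 and 101 CPM, 4.33-fold against 2.25-fold. Among NK-type receptors, Cd244a was higher and Klrb1c, Cd160 and Clec2i were lower, of 12 measured. Their log2 ratios were 2.21, −1.18, −1.14 and −1.20 in members and 2.72, −0.43, −0.54 and −1.21 in comparison cells, where the latter 3 were under the minimum level. Differences between the members' and the comparison cells' ratios were not tested.

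Csf2, Tnf and Tnfsf11 were lower in stimulated members. Csf2 was at 121 CPM [97.0 to 148] and 30.9 CPM [25.5 to 37.3], a log2 ratio of −1.96 against −1.59 in comparison cells. Tnf and Tnfsf11 were 2.14-fold and 2.18-fold lower, against 1.78-fold and 2.01-fold in comparison cells. Nr4a1 was at 706.5 and 229 CPM, 3.08-fold lower against 2.11-fold, and the heat shock genes Hspa1a, Hspa1b and Hsph1 were 2.14-fold to 3.22-fold lower, of 11 measured, with none called in comparison cells. Ccrl2, Ccnb1ip1 and Nrde2 were also named, at log2 ratios of −1.90, −2.02 and −1.60 against −1.55, 0.58 and −0.88. Further named genes rest on few cells: 1 unstimulated cell held 83% of the Hist1h2ap UMIs, and Crip1 and Fkbp2 had log2 ratios of −2.24 and −1.57 with and −0.66 and 0.02 without the B-marked cells, and −0.13 and −0.18 in comparison cells.

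**Figure D5:**
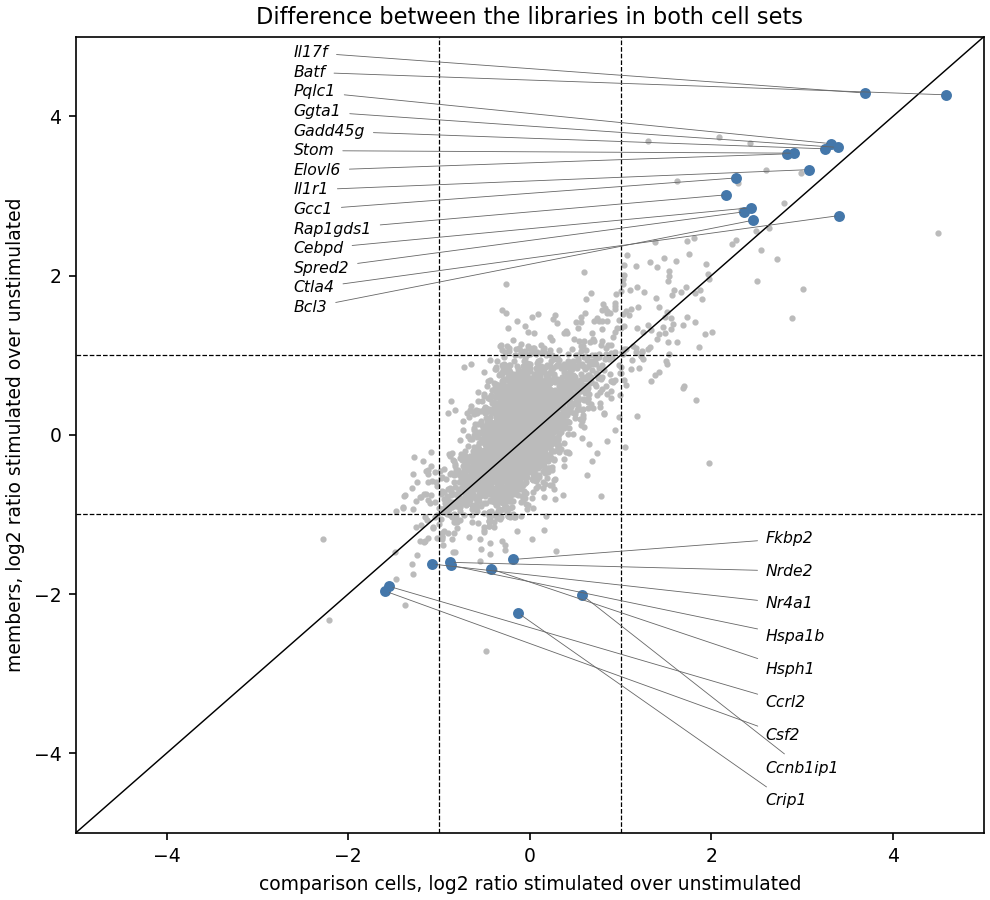
Log2 ratio of stimulated over unstimulated CPM in comparison cells (horizontal) and in members (vertical) for genes measured in both; each grey point is a gene, the solid line marks equality, dashed lines 2-fold, and 3 immunoglobulin genes (Jchain, Igkc and Igha) lie outside the axes. Named genes are coloured where measured in both sets, with Il17f at 4.29 in members and 3.69 in comparison cells and Csf2 at −1.96 and −1.59.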

How the data were processed

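The authors deposited raw UMI counts, whole numbers without scaling, of 32285 features in each of 2 libraries. Per the submitters' processing notes the build was mm10 and the tool Cell Ranger 3.1.0. The matrices' own headers name cellranger 6.0.0. Which of them made the counts, and how cells were told from empty droplets, is not given in the sources used here. Barcodes were kept if they had 500 or more genes and no more than 10% of UMIs from mt- genes (10790 of 11096 and 9251 of 10440). UMIs were summed over the cells of each group and scaled to CPM of the group's total, and ratios were taken with 0.5 UMI added to each sum. The script was tested on simulated data. Thinning drew 2000 UMIs per cell and left out shallower cells (391 and 317 of the CD3-negative cells). Groups come from the treatment label. Named genes had at least 50 CPM in the higher group and a UMI in at least 10 of its cells: the 15 highest and 10 lowest ratios per comparison, for members against comparison cells ranked by the less extreme library. V, D, J segments, genes named Gm or Rik and the rule's genes were left out, and list genes were added. Some items are not reported here. Alternatives changed the minimum level, fold, scaling, cell filters and members. The members, lists and alternatives were chosen with earlier results of these data known. Python 3.11.15, numpy 2.4.6, scipy 1.17.1, pandas 2.3.3 and, for TMM scaling only, edgeR 4.0.16 were used.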

Additional observations from a re-analysis of the deposited data

How the results depend on the processing

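No paired analysis was possible because each condition is 1 library with no replicate number. The counts of genes called depended on the minimum level, the fold required and the choice of cells. For members against comparison cells in the unstimulated library, the 99 higher and 85 lower genes became 359 and 578 with no CPM minimum, 47 and 14 with at least 50 CPM, 290 and 448 at 1.5-fold, 273 and 294 with at least 2 UMIs of Ifng plus Gzma, 318 and 275 with Ncr1-positive members, and 200 and 2460 without cells with a UMI of Trbc1, Trbc2 and Trdc, which left 7 members. Leaving out cells above the 95th percentile of UMIs gave 158 higher. Lower genes numbered 37 with 5 CPM added, 47 with median of ratios and 55 without cells with B cell markers. For the stimulated library, the 16 and 3 became 160 and 127 with no CPM minimum, 55 and 19 at 1.5-fold, 27 and 16 with Ncr1-positive members and 192 and 118 without Trbc1, Trbc2 and Trdc, which left 66 members. Lower genes numbered 8 with at least 2 UMIs and 6 without the deepest cells.

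For stimulated over unstimulated members, the 224 and 194 became 530 and 369 with no CPM minimum, 123 and 89 with at least 50 CPM, 599 and 614 at 1.5-fold and 384 and 456 with at least 2 UMIs. Higher genes numbered 1682 without Trbc1, Trbc2 and Trdc, and lower genes 112 with 5 CPM added and 307 without the deepest cells. For Ifng-only over Gzma-only members, the 172 and 88 became 526 and 441 at 1.5-fold and 260 and 255 among Ncr1-positive members, and lower genes numbered 164 with at least 2 UMIs. The latter 2, and the removal of B-marked cells, were chosen after seeing the data. The share of members was 0.351% and 3.0% with at least 2 UMIs and 0.428% and 2.64% after thinning. No unstimulated cell had both genes with at least 2 UMIs of each, or after thinning, so both overlaps were 0%.

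Of the log2 ratios of named genes, 10 reversed. Without Trbc1, Trbc2 and Trdc these were Hspa1a (−0.030) and Csf2 (−2.07) in members against comparison cells, unstimulated, Xcl1 in stimulated over unstimulated members (4.32), and Xcl1 (−2.44), Tnfsf11 (−0.82) and Gbp2 (0.79) in Ifng-only over Gzma-only members. Without the deepest cells they were Cd74 in unstimulated members (−1.38) and Fkbp2 in stimulated over unstimulated members (0.26), the latter also without B-marked cells (0.021), and with Ncr1-positive members Cd74 in Ifng-only over Gzma-only members (0.47). The causes were not tested. Depth limits the reading of single cells: a member with 1 UMI may owe it to free RNA, and 63 of 98 and 189 of 444 members had 1.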
